A study of Mus musculus with 12 samples.

Results

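Interferon-stimulated genes encode the effector proteins that cells make after sensing interferon, and their levels were followed here in sorted mouse B cells. The set was defined as 44 genes induced by type I or type II interferon, with the IRF and STAT transcription factors left out. Of these, 42 were measured through 72 probe sets that carry a single gene symbol, out of 18193 genes and 45037 probe sets on the array. Isg15, whose probe set carries the symbol of a second gene as well, and Ifi44 were not analysed here. RNA came from 12 samples of female C57BL/6 mice in 4 groups of 3. From the spleen of mice older than 15 months came follicular B cells (FO) and age-associated B cells (ABC), B1 cells were sorted from the peritoneal cavity of mice of that age (old B1), and B1 cells were sorted from the same site in mice 8 weeks old (young B1). Sample titles call the B1 cells B1a. No cells were cultured, stimulated or genetically altered, the surface markers used for the sort are not named in the labels, and every comparison with B1 cells is also a comparison of peritoneal cavity with spleen. Nothing in the labels says that the 3 samples of a group came from separate mice, so a p-value here reflects only how far these samples spread, which may be technical.

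Type I interferons act through the IFNAR receptor, the kinases JAK1 and TYK2 and the factor ISGF3, in which a pair of STAT proteins joins IRF9, and ISGF3 binds a DNA motif called the interferon-stimulated response element (ISRE). Interferon gamma acts through its own receptor and STAT dimers, which bind a motif called GAS. B cells respond to both, and interferon-gamma signalling together with the factor T-bet (Tbx21) is known for its role in forming T-bet-positive age-associated B cells.

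The promoters of some members show the ISRE letters directly. RefSeq's promoter table (GRCm38.p6) held an entry for 31 of the 42 members, and the 250 bases upstream of each start site were searched on both strands. The ISRE letters, GAAA and again GAAA with any 2 bases between them, were found for 11 of these 31 members (35.5%), against 3.46% of 27025 genes in the table. The GAS letters TTCNNNGAA were found for 6 of the 31 (19.4%), against 8.13% of all genes, and 1 member promoter held overlapping matches of both motifs. The ISRE-positive members were Bst2, Gbp2, Gbp3, Ifit1, Ifit3, Igtp, Irgm1, Oas1a, Oas3, Rsad2 and Trim30a. Below are the 250 upstream bases, written toward the start site, of 5 members that hold the letters and yet differ in pattern across the B cells: Oas3 and Rsad2, Gbp2, Irgm1, and Ifit1, which passed no test. Capitals mark the ISRE letters on either strand.
Oas3, chr5:120777660-120777909, minus strand: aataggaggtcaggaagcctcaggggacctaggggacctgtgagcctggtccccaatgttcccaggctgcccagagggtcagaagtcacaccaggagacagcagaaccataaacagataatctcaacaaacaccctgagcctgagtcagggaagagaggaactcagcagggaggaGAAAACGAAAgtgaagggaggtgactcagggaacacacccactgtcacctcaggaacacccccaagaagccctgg
Rsad2, chr12:26456453-26456702, minus strand: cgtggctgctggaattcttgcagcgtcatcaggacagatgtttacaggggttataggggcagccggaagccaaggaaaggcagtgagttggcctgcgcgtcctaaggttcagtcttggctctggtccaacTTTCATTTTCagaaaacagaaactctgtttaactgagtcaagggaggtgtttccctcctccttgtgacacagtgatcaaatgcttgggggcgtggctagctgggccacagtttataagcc
Gbp2, chr3:142620413-142620662, plus strand: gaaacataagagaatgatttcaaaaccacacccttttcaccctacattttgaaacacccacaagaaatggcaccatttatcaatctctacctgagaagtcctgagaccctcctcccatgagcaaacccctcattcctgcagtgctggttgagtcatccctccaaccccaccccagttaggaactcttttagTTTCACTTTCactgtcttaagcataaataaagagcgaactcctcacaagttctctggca
Irgm1, chr11:48871421-48871670, minus strand: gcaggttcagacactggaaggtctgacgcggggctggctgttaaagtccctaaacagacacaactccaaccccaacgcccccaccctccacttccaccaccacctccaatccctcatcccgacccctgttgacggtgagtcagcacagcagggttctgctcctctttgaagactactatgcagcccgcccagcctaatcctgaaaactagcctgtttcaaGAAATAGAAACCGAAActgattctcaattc
Ifit1, chr19:34640639-34640888, plus strand: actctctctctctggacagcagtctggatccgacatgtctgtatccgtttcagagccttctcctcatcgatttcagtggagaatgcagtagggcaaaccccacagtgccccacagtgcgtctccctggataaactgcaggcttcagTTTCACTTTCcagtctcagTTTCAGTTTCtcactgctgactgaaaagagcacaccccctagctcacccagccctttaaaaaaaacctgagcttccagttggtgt
Gbp2, Rsad2 and Oas3 each carry 1 match, and Irgm1 and Ifit1 each carry 2, which overlap in Irgm1. A match describes the letters in this window and is not a measured binding site. Usp18, Rtp4, Dhx58, Mx1, Mx2, Iigp1, Oas2, Zbp1, Parp9, Parp14 and Tor3a had no table entry. Among members with an entry, the letters were present in 2 of 5 genes lower in ABC than FO and in 9 of 24 that passed no test there.

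The deposited values are array intensities, and the levels below are their log2, so a difference of 1 is a doubling of intensity. Levels of different probe sets are not compared with each other. Where a gene lies below the median of its array, the files used here do not show whether it is above background, and a fold against it is approximate. Array medians ran from 44 to 49.2 on the linear scale. Replicate 3 of old B1 and replicate 2 of FO stood apart from the rest: their 75th percentiles were 346 and 378, against 400 to 412 on the other arrays, and their fitted array weights were 0.102 and 0.349. Markers of the labelled populations were checked. Tbx21 averaged 11.67 ± 0.39 in ABC and 8.50 ± 0.14 in FO, the follicular receptor Cr2 averaged 12.26 ± 0.13 in FO and 9.40 ± 0.88 in ABC, and the B1 factor Sox5 averaged 10.36 ± 0.13 in old B1 and 5.09 ± 0.54 in FO (mean ± SD, n = 3). The B1 list as a whole did not set B1 cells apart from ABC: its 5 markers summed to a log2 level of 12.55 to 12.67 in ABC, 9.12 to 9.87 in FO and 12.36 to 12.76 in old B1. Of these markers 4, Sox5 among them, were called higher in ABC than FO. The B cell receptor chain Cd79a lay between 13.08 and 13.37 on all 12 arrays. Not every B cell marker was that even. Of 5 measured, 2 (Cd22 and Pax5) were called lower in old B1 than in FO, beside 16.4% of all genes called. The same 2 were called higher in ABC than in old B1, beside 12.8% of all genes. Pax5 lay below the array median on all 3 old B1 arrays. Markers of other cells were also present. The summed log2 level of 10 macrophage markers was 13.59 to 13.80 in ABC, 9.90 to 11.11 in FO and 13.22 to 14.30 in old B1, and that of 8 neutrophil markers was 14.34 to 15.10, 8.79 to 13.28 and 7.30 to 8.61. The 7 mast cell markers summed to 7.56 to 9.25 in ABC, 6.73 to 6.95 in FO and 10.89 to 12.11 in old B1. In RNA of a sorted bulk population, fewer cells of a type and less RNA per cell cannot be told apart.

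Across the 4 populations the interferon-stimulated genes did not move as a block. FO cells had the highest mean for 20 of the 42 members, young B1 for 9, old B1 for 7 and ABC for 6. ABC had the lowest mean for 17 members, young B1 for 11, old B1 for 8 and FO for 6. The genes lowest in ABC included Oas1a, Oas2, Oas3, Oasl2, Mx2, Rsad2, Dhx58 and Rtp4, and those highest in ABC were Ifih1, Mx1, Iigp1, Ifi47, Pml and Tor3a. Arrays of 1 group also differed in the set as a whole. ABC replicate 1 held the highest value of its group for 23 members and ABC replicate 2 the lowest for 23. FO replicate 3 was highest for 24, FO replicate 2 lowest for 24, young B1 replicate 3 highest for 30 and young B1 replicate 2 lowest for 24. The median within-group SD of a member ranged from 0.07 (Samd9l, a restriction factor) to 0.76 (Ifit1, which binds viral RNA ends).

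**Figure D1:**
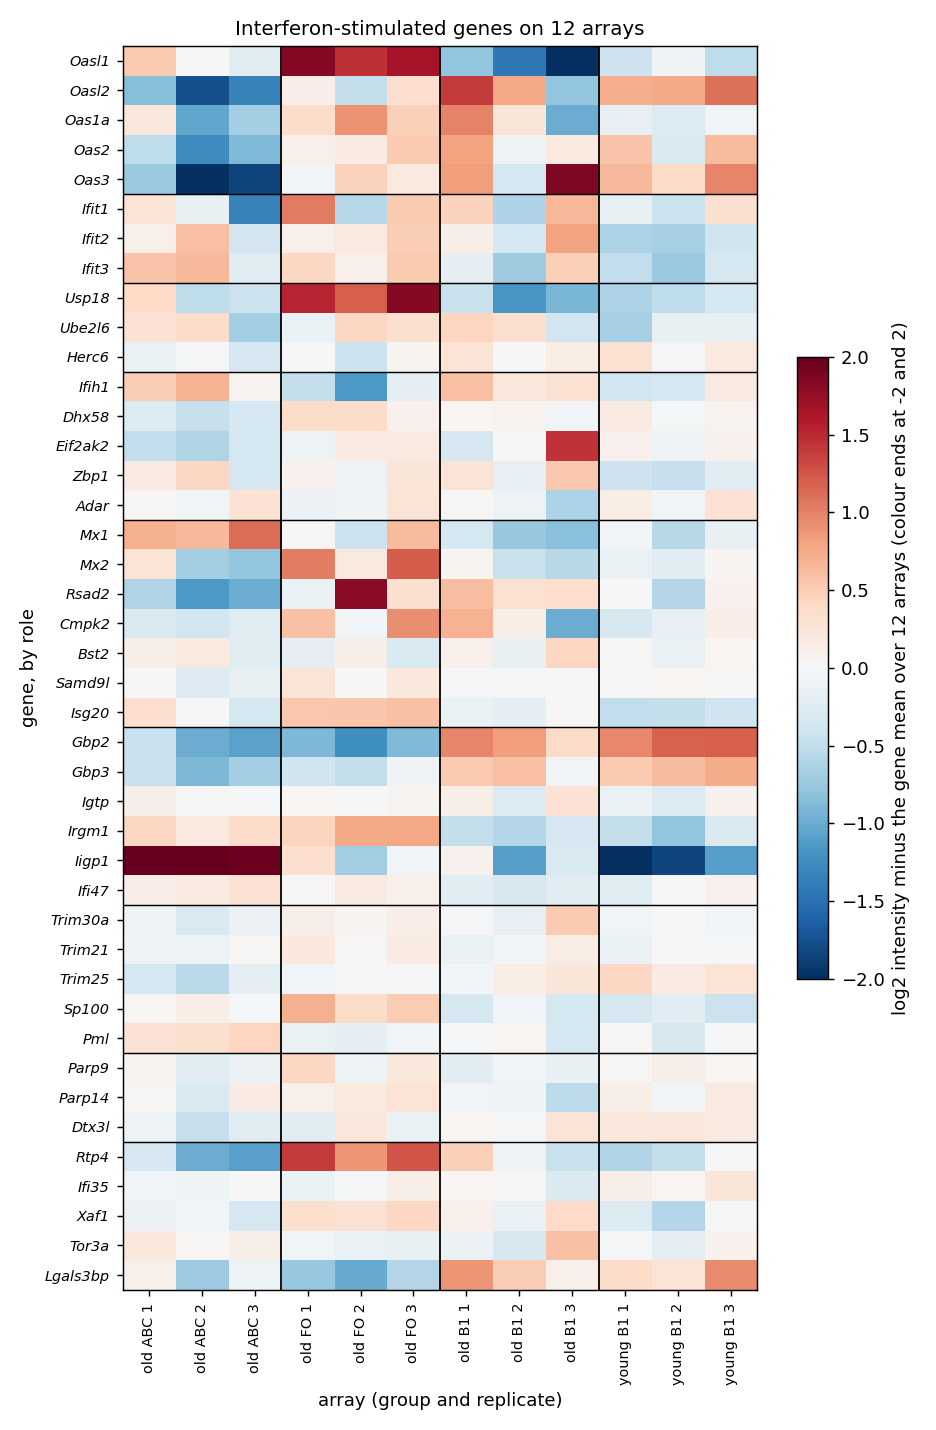
Each row is a measured interferon-stimulated gene, grouped by role, and each column is an array, with colour for the log2 intensity minus the gene's mean over the 12 arrays (colour ends at -2 and 2). Oasl1, Usp18 and Rtp4 are high on the 3 FO arrays, Iigp1 is high on the 3 ABC arrays, and Gbp2 and Gbp3 are highest on the B1 arrays.

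The comparison of ABC with FO asks how B cells that accumulate with age differ from the main follicular population of the spleen at the same age. In ABC, 10 interferon-stimulated genes fell below FO and 3 were above it, while 29 did not pass the test (limma, adjusted p under 0.05 over all genes). The lower genes were Oasl1, Oas2, Oas3, Usp18, Dhx58, Mx2, Rsad2, Isg20, Sp100 and Rtp4. The higher genes were Iigp1, Ifih1 and Pml. The 13 called members are 31% of those measured, against 9.96% of all genes called, of which 7.12% were higher and 2.84% lower in ABC. The members' median difference was -0.27, with 31 of 42 differences below 0, against a median of -0.03 over all genes. At an unadjusted p under 0.05, 20 of the 42 members passed, beside 20.4% of all genes. With each array centred on its own median, the split became 1 higher and 12 lower, beside 10.4% of all genes. Without the 2 arrays that stand apart it was 2 higher and 14 lower, beside 16.3% of all genes. Another fit left out dim genes, those that reached the array median on fewer than 3 arrays. There, 3 of 41 members were higher and 9 lower, beside 16.8% of all genes. At an adjusted p under 0.01, 5 of the 42 members passed, beside 5.44% of all genes.

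The OAS family makes or resembles the enzymes that produce 2-5A, the activator of RNase L. All 5 measured members had a lower mean in ABC than in FO, with a median difference of -1.30, and 3 passed the test. Oasl1, an OAS-like protein without that enzyme activity that restrains translation of Irf7, stood at 7.51, 6.98 and 6.76 in ABC and at 8.82, 8.45 and 8.63 in FO. Every ABC array lay below every FO array, and the difference was -1.55 ± 0.29 (SE), with a limma adjusted p of 0.00619. Oas3 stood at 7.61, 5.97 and 6.50 in ABC and at 8.30, 8.82 and 8.55 in FO. Those groups were also separate, although the ABC arrays spread widely, and the difference was -1.86 ± 0.52 (adjusted p = 0.0496). Oas2 differed by -1.14 ± 0.30 (adjusted p = 0.0364). Oasl2 and Oas1a had differences of -1.30 ± 0.47 and -1.08 ± 0.45 and did not pass (adjusted p = 0.131 and 0.198), though neither overlapped between groups.

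Usp18 removes ISG15 from proteins and blocks signalling at the IFNAR2 receptor chain. Its level was 7.43, 6.53 and 6.61 in ABC and 8.57, 8.24 and 8.87 in FO. FO was higher on every array, by a factor of 3.25, and the difference was -1.70 ± 0.26 (adjusted p = 0.002). The ISG15-conjugating enzymes Ube2l6 and Herc6 differed by -0.20 ± 0.31 and -0.04 ± 0.15 and did not pass (adjusted p = 0.824 and 0.946).

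Rtp4, a chaperone of G protein-coupled receptors that also binds viral RNA, was measured at 7.98, 7.31 and 7.23 in ABC and at 9.71, 9.19 and 9.57 in FO. The groups were far apart, and its fall of 1.98 on the log2 scale (3.95-fold, SE 0.28, adjusted p = 0.00106) had the lowest p of the set in this comparison. A second Rtp4 probe set, dimmer than the array median on 9 arrays, differed by -1.20.

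Cytosolic RNA sensors moved apart from each other. Dhx58 (LGP2), which modulates the other RIG-I-like receptors, was 7.78, 7.58 and 7.70 in ABC and 8.42, 8.42 and 8.13 in FO. Its groups did not overlap and its change was -0.64 ± 0.11 (adjusted p = 0.00406). Ifih1 (MDA5), the sensor of long double-stranded RNA, was 7.96, 8.15 and 7.51 in ABC and 6.99, 6.31 and 7.27 in FO. All ABC arrays were above all FO arrays here, by 1.01 ± 0.26 (adjusted p = 0.0328). Zbp1, a sensor of Z-form nucleic acid, differed by -0.01 ± 0.22 (adjusted p = 0.992).

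Among antiviral effectors, Rsad2 (viperin), which makes a chain-terminating nucleotide, read 8.02, 7.48 and 7.63 in ABC and 8.50, 10.43 and 8.94 in FO. The FO replicate at 10.43 is the array that stands apart, and the difference of -1.58 ± 0.41 (adjusted p = 0.0346) became -1.01 without that array (adjusted p = 0.0327). The exonuclease gene Isg20 differed by -0.56 ± 0.15 (adjusted p = 0.042). The adjacent genes Mx1 and Mx2 belong to a family of dynamin-like GTPases. Whether their proteins act against viruses in these mice was not tested. Mx2 had -1.21 ± 0.32 (adjusted p = 0.0393), but its groups overlapped and 10 of 12 arrays read below their own median. Mx1 read 9.66, 9.60 and 10.07 in ABC and 8.98, 8.53 and 9.59 in FO, a difference of 0.75 ± 0.26 that did not pass (adjusted p = 0.116). Samd9l differed by -0.30 ± 0.10 (adjusted p = 0.0897).

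Iigp1 (Irga6) belongs to the immunity-related GTPases that attack the vacuoles of intracellular parasites. It read 8.53, 8.38 and 7.88 in ABC against 6.25, 5.22 and 5.86 in FO. Every ABC array was well above every FO array, and the rise of 2.49 ± 0.39 (5.61-fold, adjusted p = 0.00218) was the largest among the members. Its second probe set gave 2.14. The first lay below the array median on 1 FO, 1 old B1 and 3 young B1 arrays and the second on 9 of 12 arrays. The other 5 GTPases of the set, Gbp2, Gbp3, Igtp, Irgm1 and Ifi47, did not pass, with differences from -0.36 (Gbp3) to 0.17 (Gbp2). Of the nuclear body proteins, Sp100 was lower in ABC at -0.48 ± 0.12 (adjusted p = 0.0327) and Pml was higher by 0.47 ± 0.13 (adjusted p = 0.0477). None of the 3 IFIT genes or of Parp9, Parp14 and Dtx3l passed in limma, and 0 of these had an unadjusted p under 0.05. Ifit3, Dtx3l and Ifi35 differed by -0.02 ± 0.31, -0.22 ± 0.14 and -0.04 ± 0.12.

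The calls of Rtp4, Usp18, Dhx58, Oasl1 and Iigp1 held when any of the 12 arrays was left out. The other 8 did not. Ifih1 lost its call without ABC or FO replicates 1 or 2 (adjusted p 0.0703 to 0.123), Oas2 without ABC replicates 2 or 3 or any FO array (0.0738 to 0.136), Sp100 without any ABC array, FO replicates 1 or 3 or young B1 replicate 1 (0.0536 to 0.124) and Rsad2 without any ABC array, FO replicate 3 or young B1 replicates 1 or 3 (0.0519 to 0.115). Oas3 lost it without ABC replicates 2 or 3, any FO or young B1 array or old B1 replicate 1 (0.0674 to 0.174), Pml without any ABC or FO array, old B1 replicate 1 or young B1 replicates 1 or 3 (0.0609 to 0.148), Mx2 without ABC replicates 2 or 3, FO replicates 1 or 3, old B1 replicate 2 or any young B1 array (0.0533 to 0.149) and Isg20 without any array but ABC replicate 1 and old B1 replicate 3 (0.0548 to 0.124). The count of called members fell to 5 without ABC replicate 2, 6 without ABC replicate 3 or FO replicate 1, 7 without FO replicate 3 or young B1 replicate 1 and 8 without young B1 replicate 3, where 6.96% to 8.62% of all genes were called. Macrophage markers moved with this comparison, with 7 of 10 higher in ABC (Adgre1 by 4.27), as did 5 of 8 neutrophil markers (Ltf by 4.18), 2 of 7 plasmacytoid dendritic cell markers (Lag3 by 2.98), 2 of 5 NK cell markers (Gzma by 4.22), 1 of 6 T cell markers (Cd3g by 2.25), 2 of 7 mast cell markers and 1 of 6 conventional dendritic cell markers. In ABC 1 macrophage marker and in FO 4 lay below the array median on all 3 arrays. Beside these marker calls, 9.96% of all genes were called. Ncr1, the other NK cell marker called, lay below the array median on all 12 arrays. Siglech lost its call without any of 3 arrays (limma adjusted p up to 0.074), Cpa3 of 5 (up to 0.128) and Zbtb46 of 9 (up to 0.148). The part of these cells in the differences was not tested.

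**Figure D2:**
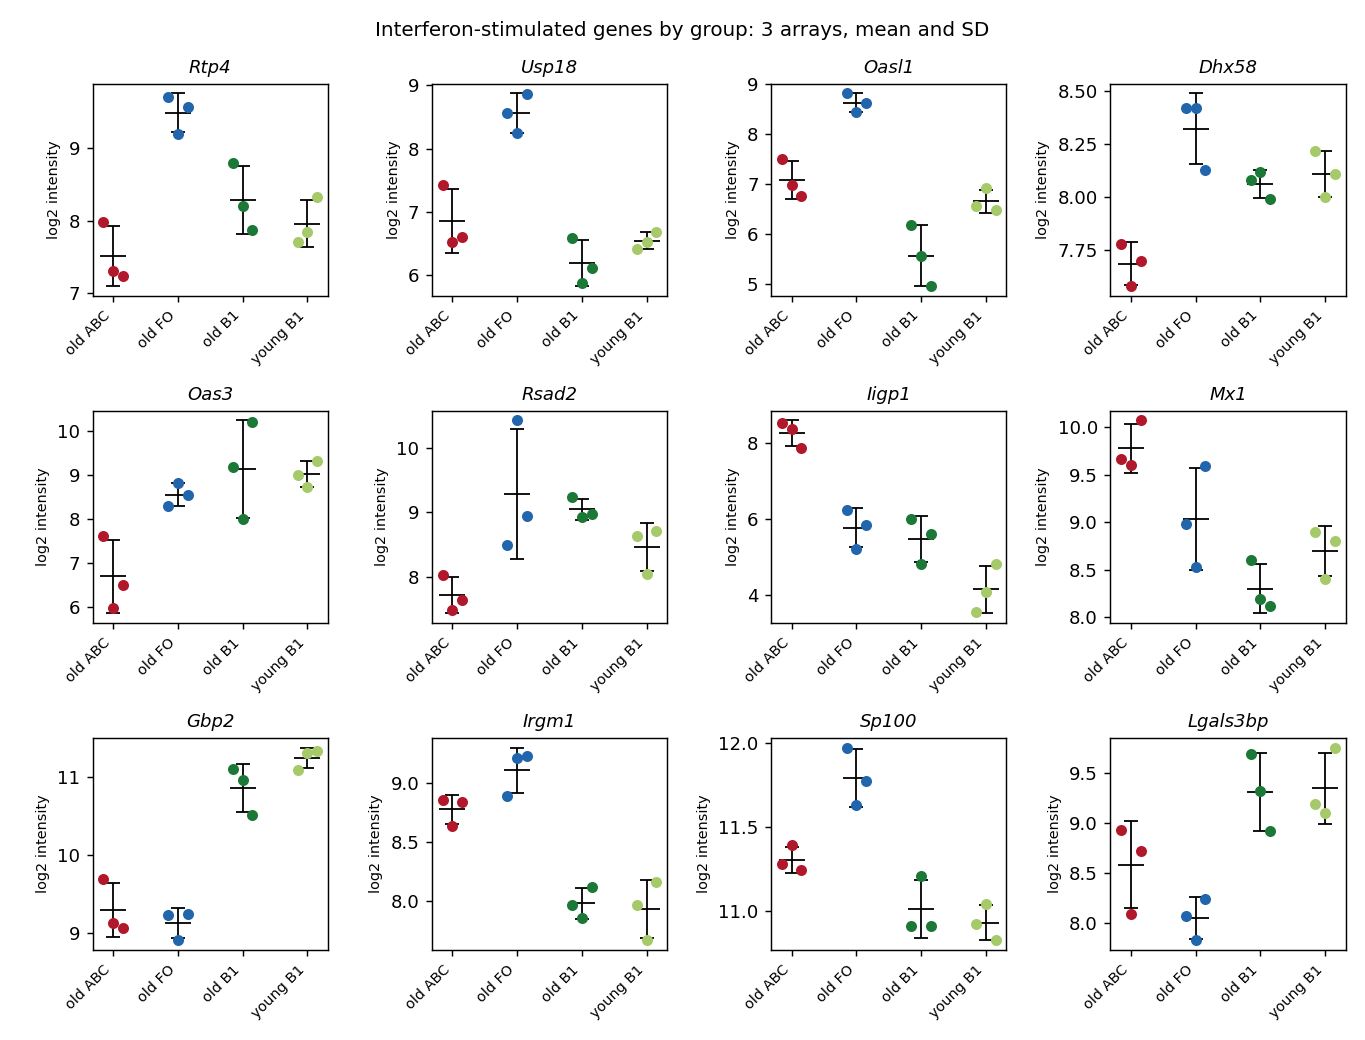
Points are the 3 arrays of each group for 12 interferon-stimulated genes, with the mean as a wide bar and the SD as whiskers, on a log2 intensity axis that is scaled separately for each gene. Rtp4, Usp18 and Oasl1 are highest in FO, Iigp1 and Mx1 in ABC, and Gbp2 in B1 cells.

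ABC and B1 cells of old mice were compared next, across spleen and peritoneal cavity. Relative to old B1, ABC had higher Iigp1, Mx1, Oasl1, Irgm1, Ifi47 and Pml and lower Oas3, Oasl2, Gbp2, Oas2, Gbp3 and Trim25. That is 6 members in each direction and 30 that did not pass, 28.6% of the set, against 12.8% of all genes called (7.4% higher and 5.43% lower in ABC). The members' median difference was -0.10, against 0.02 over all genes. At an unadjusted p under 0.05, 20 of the 42 members passed, beside 25.5% of all genes. Cyclic loess normalisation gave 6 higher and 10 lower, beside 13.5% of all genes, and fitting each array's 75th percentile as well gave 5 and 9, beside 14.5%. Without the 2 arrays that stand apart, 5 were higher and 11 lower, beside 17.5% of all genes. With dim genes left out, 6 of 41 members were higher and 8 lower, beside 22.3% of all genes. At an adjusted p under 0.01, 6 of the 42 members passed, beside 7.04% of all genes.

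The OAS genes were split. Oasl1 read 7.51, 6.98 and 6.76 in ABC and 6.19, 5.56 and 4.97 in old B1, so it was higher on every ABC array, by 1.51 ± 0.29 (adjusted p = 0.00621). Its chromosomal neighbour Oasl2, which like other OAS proteins can make 2-5A in mice, read 6.90, 6.00 and 6.42 in ABC and 9.15, 8.52 and 6.96 in old B1. It was lower on every ABC array, by 1.77 on the log2 scale (SE 0.47, adjusted p = 0.0323), with the narrowest gap at the old B1 array that stands apart. Oas3 read 9.19, 8.01 and 10.22 in old B1, all above ABC, and its difference of -2.45 ± 0.52 (adjusted p = 0.0109) was -1.91 without old B1 replicate 3 (adjusted p = 0.0176). Oas2, the neighbour of Oas3, differed by -1.20 ± 0.30 (adjusted p = 0.0247).

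The GTPases were split as well. Gbp2, a guanylate-binding protein that coats pathogen vacuoles, read 9.69, 9.13 and 9.06 in ABC and 11.10, 10.96 and 10.51 in old B1. ABC was lower throughout, by 1.56 on the log2 scale (2.96-fold), and the difference of -1.56 ± 0.20 had an adjusted p of 5.4e-04, with -1.47 at a second probe set. Its neighbour Gbp3 differed by -1.04 ± 0.19 (adjusted p = 0.00478). Irgm1, the regulator that keeps immunity-related GTPases off the cell's own membranes, read 8.86, 8.64 and 8.84 in ABC and 7.97, 7.86 and 8.12 in old B1. That direction was the opposite of Gbp2's: ABC was higher on every array, by 0.80 ± 0.15 (adjusted p = 0.00501). Iigp1 was again far higher in ABC, where old B1 read 6.01, 4.82 and 5.62, and the difference was 2.78 ± 0.39 (6.86-fold, adjusted p = 1.0e-03). Ifi47 (Irg-47) differed by 0.46 ± 0.10 (adjusted p = 0.0159).

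Mx1 was called here. Old B1 read 8.60, 8.19 and 8.12, all below the ABC arrays, and the difference was 1.47 ± 0.26 (2.77-fold, adjusted p = 0.00383), whereas its neighbour Mx2 differed by -0.08 ± 0.32 (adjusted p = 0.903). Trim25, a ubiquitin ligase of the RIG-I pathway, differed by -0.48 ± 0.12 (adjusted p = 0.023). Of its other probe sets, 1 gave -0.75 (adjusted p = 0.0302 over all probe sets) and a dimmer 1 gave 0.05 (adjusted p = 0.891). Pml differed by 0.45 ± 0.13 (adjusted p = 0.0447). Usp18 and Rtp4 did not pass against old B1, at 0.66 ± 0.26 and -0.78 ± 0.28 (adjusted p = 0.142 and 0.102), and both overlapped between groups. Rsad2 missed the threshold at -1.34 ± 0.41 (adjusted p = 0.0597) without overlapping. No IFIT gene, nucleic acid sensor or member of the PARP9 group passed in limma, where 0, 2 and 1 of them had an unadjusted p under 0.05. Ifit3 had 0.47 ± 0.31, Zbp1 -0.14 ± 0.22, Dtx3l -0.35 ± 0.14, Samd9l -0.10 ± 0.10 and Ifi35 0.03 ± 0.12. Herc6 had -0.30 ± 0.15 and did not pass, but 2 of its other probe sets were called lower in ABC, at -0.89 and -0.58 (adjusted p = 0.00682 and 0.015 over all probe sets).

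Gbp2, Gbp3, Iigp1, Irgm1, Mx1, Oas3 and Oasl1 kept the call against old B1 when any array was left out. Ifi47 lost it without ABC replicate 3 or old B1 replicate 2 (adjusted p up to 0.0588), Oas2 without ABC replicates 2 or 3 or old B1 replicate 1 (up to 0.103) and Trim25 without ABC replicates 1 or 2 or old B1 replicates 2 or 3 (up to 0.094). Oasl2 lost it without ABC replicates 2 or 3, old B1 replicates 1 or 2 or young B1 replicates 1 or 2 (up to 0.124), and Pml without any of 10 arrays, the exceptions being old B1 replicate 2 and young B1 replicate 2 (up to 0.126). All 8 neutrophil markers were higher in ABC than in old B1 (Ngp by 6.17), 4 of 7 mast cell markers were lower (Cma1 by -5.18), and of 10 macrophage markers 1 was higher (Adgre1 by 2.16) and 2 lower (Vsig4 by -5.09). Higher in ABC were also 3 of 7 plasmacytoid dendritic cell markers, 2 of 5 NK cell markers (Gzma by 3.62), 1 of 6 T cell markers (Cd4 by 1.30) and 1 of 6 conventional dendritic cell markers. In old B1, 6 of the 8 neutrophil markers lay below the array median on all 3 arrays. Beside these marker calls, 12.8% of all genes were called. Gzma lost its call without ABC replicate 1 (limma adjusted p = 0.0663). Ncr1, below the array median on all 12 arrays, lost it without any of 8 arrays (up to 0.0862). So did Siglech without any of 6 arrays (up to 0.123), Cpa3 of 6 (up to 0.108) and Cox6a2 of 4 (up to 0.0742). Lag3 lost it without ABC replicate 1 (0.054) and Zbtb46 without ABC replicate 3 (0.0574). The part of these cells in the member differences was not tested.

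Old B1 cells were also set against FO cells of the same age. Relative to FO, old B1 had lower Oasl1, Usp18, Irgm1, Sp100, Rtp4, Isg20, Mx2 and Ifi47 and higher Gbp2, Lgals3bp, Ifih1 and Gbp3. These 8 lower and 4 higher members are 28.6% of the set, against 16.4% of all genes called (8.4% higher and 8.02% lower), and 30 did not pass. The members' median was -0.14 and that of all genes -0.04. At an unadjusted p under 0.05, 16 of the 42 members passed, beside 28.6% of all genes. Cyclic loess gave 4 higher and 5 lower, beside 16.9% of all genes, and leaving out the 2 arrays that stand apart gave 3 and 9, beside 22% of all genes. With dim genes left out, 4 of 41 members were higher and 7 lower, and 29.1% of all genes were called. In that fit the members were not called more often than all genes. At an adjusted p under 0.01, 6 of the 42 members passed, beside 9.38% of all genes. All 3 comparisons among old populations reuse the same arrays in pairs, so they are not independent of each other.

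Oasl1 had the largest difference of any member in any comparison. With 6.19, 5.56 and 4.97 in old B1 against 8.82, 8.45 and 8.63 in FO, the groups were separated by a wide gap, and the difference was -3.06 ± 0.29 (8.31-fold, adjusted p = 5.0e-05), although 2 of the 3 old B1 values lay below their array's median. Usp18 read 6.59, 5.87 and 6.12 in old B1 against 8.57, 8.24 and 8.87 in FO. Those groups were also fully separate, and the difference was -2.37 ± 0.26 (5.16-fold, adjusted p = 1.5e-04). Rtp4 read 8.79, 8.20 and 7.87 in old B1, below the 9.19 of the lowest FO array, with -1.20 ± 0.28 (adjusted p = 0.0136) and -1.18 at its second probe set. By contrast the other OAS genes did not pass, at 0.05 ± 0.30 for Oas2, 0.59 ± 0.52 for Oas3, 0.47 ± 0.47 for Oasl2 and -0.50 ± 0.45 for Oas1a, and each of them overlapped between groups.

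Both guanylate-binding genes were higher in old B1, whereas 2 of the 4 immunity-related GTPases, Irgm1 and Ifi47, were lower. Gbp2 read 11.10, 10.96 and 10.51 in old B1 against 9.23, 8.90 and 9.24 in FO. B1 was higher on every array, by 1.73 ± 0.20 (3.33-fold, adjusted p = 1.9e-04), with 1.63 at the second probe set, and Gbp3 differed by 0.67 ± 0.19 (adjusted p = 0.0345). Irgm1, in turn, read 7.97, 7.86 and 8.12 in old B1 and 8.89, 9.21 and 9.23 in FO. It was lower in all B1 samples, by 1.13 on the log2 scale (2.19-fold), and the difference of -1.13 ± 0.15 had an adjusted p of 4.5e-04. Ifi47 differed by -0.36 ± 0.10 (adjusted p = 0.0402), while Iigp1 and Igtp, at -0.29 ± 0.39 and 0.01 ± 0.14, did not pass (adjusted p = 0.692 and 0.969).

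Sp100, a nuclear body component, read 10.91, 11.21 and 10.91 in old B1 and 11.97, 11.63 and 11.77 in FO. The B1 samples were lower without overlap, by -0.78 ± 0.12 (adjusted p = 0.00159), and a second Sp100 probe set gave -0.90. Lgals3bp, a secreted glycoprotein that binds galectins, read 9.70, 9.32 and 8.92 in old B1 and 8.07, 7.82 and 8.24 in FO. All B1 arrays were higher, by 1.27 ± 0.27 (2.42-fold, adjusted p = 0.00797). Isg20 differed by -0.66 ± 0.15 (adjusted p = 0.0139), Mx2 by -1.13 ± 0.32 (adjusted p = 0.0374) and Ifih1 by 0.99 ± 0.26 (adjusted p = 0.0254). In the other roles, Ifit3 had -0.49 ± 0.31, Herc6 0.27 ± 0.15, Samd9l -0.21 ± 0.10, Trim25 0.14 ± 0.12, Dtx3l 0.13 ± 0.14 and Ifi35 -0.06 ± 0.12, and none of these passed. Zbp1 had 0.13 ± 0.22 and did not pass, but its second probe set had the opposite sign, at -0.67 (adjusted p = 0.0476 over all probe sets).

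Gbp2, Irgm1, Isg20, Lgals3bp, Oasl1, Sp100 and Usp18 held this call without any array. Rtp4 lost it without FO replicates 1 or 3 (adjusted p up to 0.0583) and Ifih1 without FO replicates 1 or 2 or old B1 replicate 1 (up to 0.08). Gbp3 lost it without ABC replicate 3, FO or old B1 replicates 1 or 2 or young B1 replicates 2 or 3 (up to 0.111), Ifi47 without ABC or old B1 replicates 1 or 2, any FO array or young B1 replicate 2 (up to 0.108) and Mx2 without FO replicates 1 or 3, old B1 replicates 2 or 3 or any young B1 array (up to 0.142). Without FO replicate 1 the count of called members was 7, beside 11.5% of all genes. All 10 macrophage markers (Lyz2 by 4.20) and 5 of 7 mast cell markers (Mcpt4 by 5.95) were higher in old B1 than in FO, beside 16.4% of all genes called. All 7 mast cell markers lay below the array median on the FO arrays. Of 6 conventional dendritic cell markers 2 were higher and 1 lower. Of 7 plasmacytoid dendritic cell markers 1 was higher and 1 lower, and of 5 NK cell markers 1 was higher. No neutrophil or T cell marker passed in limma, though all 8 neutrophil differences lay below 0 and 6 had an unadjusted p under 0.05. The part of all these cells in the differences was not tested.

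**Figure D3:**
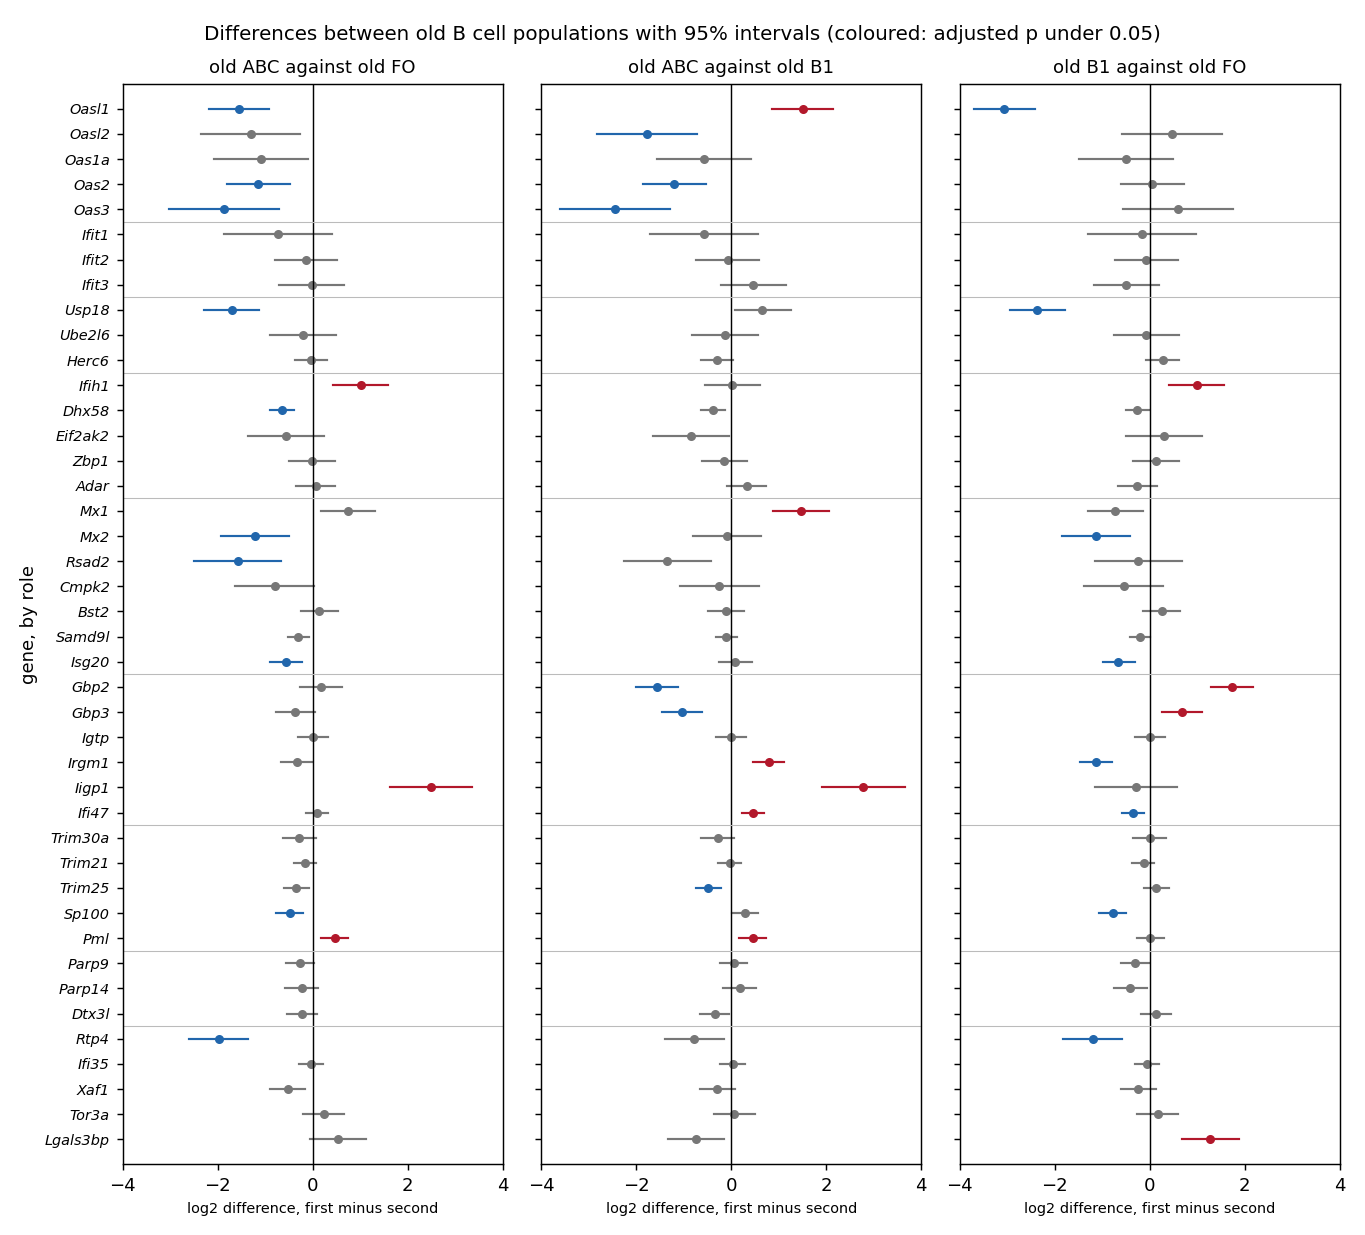
Dots are log2 differences of the 42 measured members, first group minus second, with bars for the 95% interval of the limma fit, and colour marks an adjusted p under 0.05 (red higher, blue lower). Oasl1 and Usp18 lie to the left in both comparisons with FO, Iigp1 lies to the right in both comparisons of ABC, and Gbp2 is placed on opposite sides for ABC against B1 and B1 against FO.

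The last comparison asked whether B1 cells of old and young mice differ. No interferon-stimulated gene passed the limma test, and 6 of 42 had an unadjusted p under 0.05 (Oasl1, Iigp1, Zbp1, Ifit2, Xaf1 and Isg20), against 0.291% of all genes called (53 genes) and 7.57% of all genes at that unadjusted p. At an adjusted p under 0.01, 0.0824% of all genes and none of the members passed. The members' median difference, old minus young, was 0.05, against -0.01 over all genes. Oasl1 read 6.57, 6.92 and 6.48 in young B1, above all old B1 arrays, and its difference of -1.08 ± 0.29 (95% interval -1.72 to -0.44) had the lowest adjusted p of the set, 0.255. Iigp1 read 3.56, 4.08 and 4.81 in young B1 and 6.01, 4.82 and 5.62 in old B1. The groups just failed to overlap, and the difference of 1.33 ± 0.39 (interval 0.46 to 2.20) did not pass either (adjusted p = 0.336). The intervals of 29 of 42 members lay within -1 to 1, so a doubling or halving of those genes would fall outside the interval. The half-width of an interval ranged from 0.22 to 1.16. Gbp2, which separated B1 from FO, averaged 10.86 ± 0.31 in old and 11.24 ± 0.13 in young B1, a difference of -0.39 (interval -0.83 to 0.06). Ifit3, Herc6, Samd9l, Trim25, Dtx3l and Ifi35 lay between -0.21 and 0.38. Simulated data drew independent noise at each gene's pooled spread, the same in every group, with no array that stands apart. There, 30 of 50 genes changed by 1 log2 unit and 45 of 50 changed by 2 were called in this comparison. The real old B1 group holds such an array, so these shares may not carry over to it.

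**Figure D4:**
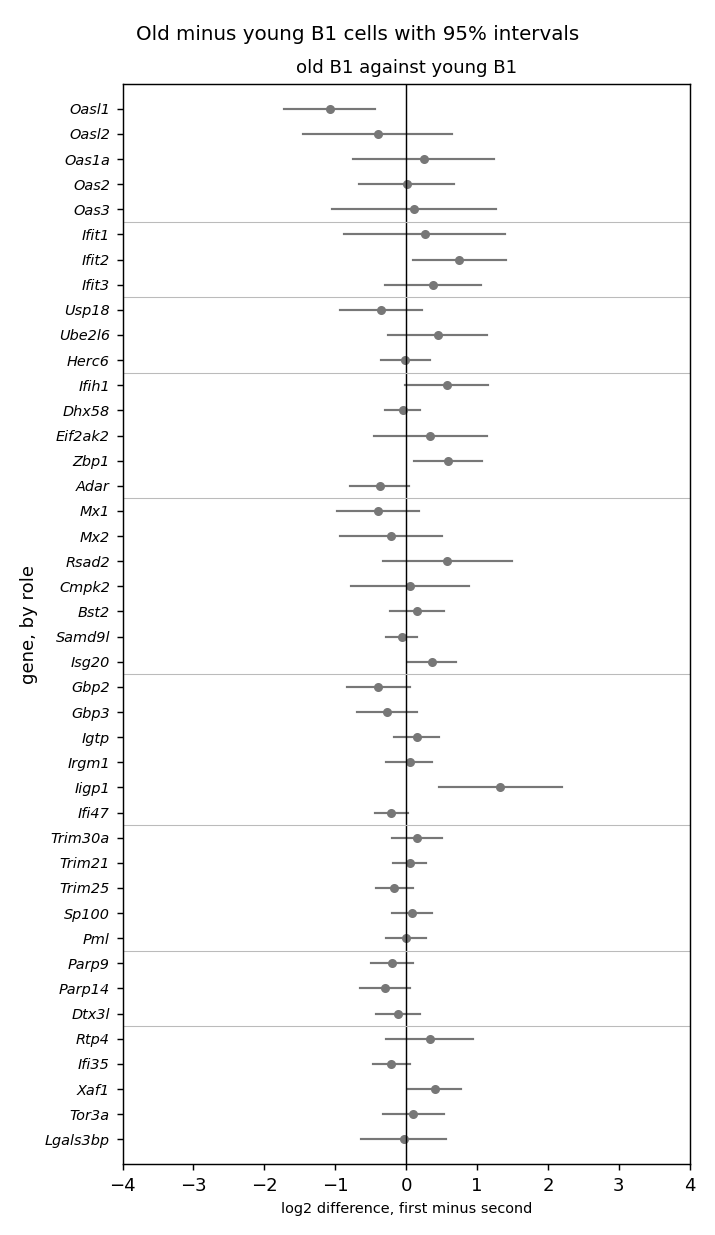
Dots are log2 differences of the 42 measured members between old and young B1 cells, old minus young, with 95% intervals of the limma fit. Oasl1 lies furthest to the left at -1.08 and Iigp1 furthest to the right at 1.33, and no gene passed at an adjusted p under 0.05.

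Several members are neighbours on the chromosome, and some neighbours had different patterns. RefSeq places Oasl1 beside Oasl2, Oas2 beside Oas3, Mx1 beside Mx2, Gbp2 beside Gbp3, Rsad2 beside Cmpk2, Ifit1, Ifit2 and Ifit3 in a row and Parp9, Dtx3l and Parp14 in a row. Oasl1 was lower in old B1 than in FO by 3.06 on the log2 scale while Oasl2 had 0.47, and Mx1 was higher in ABC than in old B1 by 1.47 while Mx2 had -0.08. Oas2 and Oas3 fell together in ABC against both other old populations, and Gbp2 and Gbp3 had the same sign against old B1. Cmpk2, a nucleotide kinase transcribed next to Rsad2, had -0.80 ± 0.38 in ABC against FO and did not pass (adjusted p = 0.269). Of the 42 members, 20 had more than 1 probe set. Tested probe set by probe set, 3 of 72 were higher and 11 lower in ABC against FO (7.69% of all probe sets called), 7 and 10 in ABC against old B1 (10.6%), 5 and 12 in old B1 against FO (14.2%) and 0 between old and young B1 (0.223%). No member had probe sets called in opposite directions. Adjusted over all probe sets, the calls of Oas3, Isg20 and Pml in ABC against FO (adjusted p = 0.0569, 0.054 and 0.063), of Pml in ABC against old B1 (0.0563) and of Ifi47 in old B1 against FO (0.0531) were lost. Second probe sets of Dhx58 (-0.36 and -0.18) and Rsad2 (-0.35) were not called in ABC against FO, and each lay below the array median on all 12 arrays. A brighter other Rsad2 probe set was called there, at -1.76 (adjusted p = 0.0497 over all probe sets). The other Pml probe sets, at 0.45 and 0.33, were not called in ABC against FO. In ABC against old B1 the brighter of these was called, at 0.86 (adjusted p = 0.00792 over all probe sets). The dimmer, at 0.85, was not called there (adjusted p = 0.282). Like Zbp1, Adar (-0.55) and Xaf1 (-1.29) had a second probe set called in old B1 against FO while the gene was not.

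Genes that sit upstream of the set were counted by role, beside the 9.96%, 12.8% and 16.4% of all genes called in ABC against FO, ABC against old B1 and old B1 against FO. Among 9 measured receptors and kinases, 2 were higher and 1 lower in ABC against FO, and none was higher and 4 lower in old B1 against FO. The interferon-lambda receptor chain Ifnlr1 was higher in ABC than in FO by 2.16 ± 0.19 (adjusted p = 5.5e-05) and than in old B1 by 3.47 ± 0.19 (adjusted p = 2.5e-06), with all FO and B1 arrays below their own median. Ifngr2, a chain of the interferon-gamma receptor, was lower in old B1 than in FO by 1.30 on the log2 scale (means 8.21 and 9.50, adjusted p = 4.6e-05), and differed by -0.19 ± 0.12 in ABC against FO (adjusted p = 0.463). Ifnar1, a chain of the type I receptor, was lower in old B1 than in FO at -0.70 ± 0.14 (adjusted p = 0.00626), and had -0.48 ± 0.14 in ABC against FO (adjusted p = 0.0595). Ifnar2 and Ifngr1 passed no test.

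Of 10 measured IRF and STAT factors, 1 was lower in ABC than FO, 3 were higher in ABC than old B1, and 4 were lower in old B1 than FO. Irf9, the DNA-binding part of ISGF3, was the gene lower in ABC than FO, at -0.44 ± 0.09 (adjusted p = 0.00921). Stat2, its partner, had -0.36 ± 0.16 there (adjusted p = 0.23) and was lower in old B1 than FO at -0.93 ± 0.16 (adjusted p = 0.00244). Irf7, which amplifies type I interferon production, averaged 8.16 in ABC, 8.92 in FO and 7.33 in old B1, and only the difference of old B1 from FO passed, at -1.58 ± 0.38 (adjusted p = 0.0159, and up to 0.0646 without FO replicates 1 or 3). Irf8 averaged 12.47 in ABC and 12.36 in FO but 9.68 in old B1, 2.80 ± 0.24 below ABC (adjusted p = 4.6e-05). Of 10 measured interferon genes none passed in ABC against FO, where 2 had an unadjusted p under 0.05. Ifnb1, Ifna2, Ifna4, Ifna9, Ifna11 and Ifnab lay below the array median on all 12 arrays, Ifna1 on 11 and Ifna5 on 9. A missing call says little about such dim genes. In old B1 against FO 1 interferon gene, Ifnz, was called higher. It lost the call without FO replicates 1 or 3 or old B1 replicate 1 (limma adjusted p 0.0508 to 0.0668). Ifng was higher in ABC than in old B1, where all 3 arrays lay below their median, by 2.89 ± 0.55 (adjusted p = 0.00594). The NK and T cell markers that were also higher in ABC are given above, and their part in the Ifng level was not tested. No gene of any upstream list passed in limma between old and young B1, and 1 to 3 genes of each list had an unadjusted p under 0.05.

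A list of 42 other measured interferon-induced genes, outside the set, showed 8 higher and 3 lower in ABC against FO, 8 higher and 7 lower in ABC against old B1, and 8 higher and 9 lower in old B1 against FO, beside the same shares of all genes. The chemokine gene Cxcl10 averaged 10.45 in ABC, 6.37 in FO and 4.85 in old B1, so that ABC exceeded FO by 4.08 ± 0.27 (adjusted p = 9.2e-06) and old B1 by 5.61 ± 0.27 (adjusted p = 9.5e-07). Cxcl9, its relative, exceeded FO by 2.66 ± 0.38 (adjusted p = 0.00119) and old B1 by 3.94 ± 0.38 (adjusted p = 9.2e-05). All FO arrays for Cxcl9, and all B1 arrays for both chemokines, lay below their own median. Lgals9, encoding galectin-9, was lower in ABC than FO at -1.16 ± 0.17 (adjusted p = 0.00156). Parp12 averaged 9.04 in old B1 and 5.40 in FO, a difference of 3.65 ± 0.30 (adjusted p = 2.0e-05) with 2 FO arrays below their median, and Gbp7 was higher in old B1 than FO by 1.07 ± 0.12 (adjusted p = 1.4e-04). The macrophage and neutrophil markers that moved with these comparisons are given above, and their part in the chemokine levels was not tested.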

How the data were processed

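RNA of 12 sorted B cell samples was measured on Affymetrix arrays after picoPure isolation and biotin labelling, per the labels' protocols. The deposited intensity values run on a linear scale between 3.00 and 22068. RMA and affy are named in the submitters' processing notes, without their versions, order or background step. The log2 of each value was taken here. Of 45037 probe sets, 34945 carried 1 gene symbol and were used, 932 carried several and 9160 none. A gene was represented by the brightest of its single-symbol probe sets by mean over the arrays (18193 genes), without a filter on dim genes.

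All 12 arrays were fitted with 4 group means in limma 3.58.1 (R 4.3.3, lmFit and eBayes, no trend, no block, 8 residual and 2.37 prior degrees of freedom), with Benjamini-Hochberg adjustment over all genes in each of 4 comparisons. A gene was called, or passed, at an adjusted p under 0.05. Intervals are 95% limits of that fit, and the number of arrays limits their precision. The fit was tested on simulated data with 200 of 18193 genes changed.

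The members, role groups, pathway lists and marker lists were chosen with earlier results of these data known. Members may all be named, with values for the called ones of lowest p and for the one of highest mean intensity in each role group, which is a rule of choice and not a comparison of levels. Of each pathway list, called genes with the 3 lowest p per comparison and a few fixed receptor and factor genes may be named, and of each marker list the called genes with the 2 lowest p. Level checks of the labelled populations (Cd79a, Cr2, Sox5 and Tbx21) are descriptive. Alternatives covered normalisation, scale, array weights, the replicate number as a block, the choice of probe set, dim genes, the threshold and leaving out arrays. Promoters came from RefSeq (GRCm38.p6).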

Additional observations from a re-analysis of the deposited data

How the results depend on the processing

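Counts of called interferon-stimulated genes depended on settings more than single directions did. Over the 26 alternatives, no call of the 42 members or of the pathway and marker genes named turned its direction: of 4364 member results 4108 kept their side of the threshold, 180 lost a call and 76 gained one. Calls kept under every alternative were Dhx58, Iigp1, Oasl1, Rtp4 and Usp18 in ABC against FO, Gbp2, Iigp1, Irgm1 and Mx1 in ABC against old B1, and Gbp2, Irgm1, Lgals3bp, Oasl1, Sp100 and Usp18 in old B1 against FO. In ABC against FO the count of 13 was 5 at an adjusted p under 0.01 and ranged from 5 to 18 when an array was left out, and the median of -0.27 was -0.38 with the probe set of largest variance. In ABC against old B1 the count of 12 was 5 with only the groups compared (5.84% of all genes) and 6 at an adjusted p under 0.01, ranged from 8 to 13 when an array was left out, and the median of -0.10 was 0.01 without ABC replicate 3 (range -0.20 to 0.01). In old B1 against FO the count of 12 was 7 with only the groups compared (8% of all genes) and 6 at an adjusted p under 0.01, ranged from 7 to 12 when an array was left out, and the median of -0.14 was -0.26 with the probe set of largest variance. Between old and young B1 the count was 0 throughout. Without the 2 arrays that stand apart the counts were 16, 16, 12 and 0. With array weights they were 19, 15, 17 and 0, while the share of all genes called rose to 21.8%, 19.7%, 27.5% and 1.74%. The cause of these shifts was not tested.

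No pairing of samples by replicate number was seen. Deviations of same-numbered arrays correlated from -0.391 to 0.228, and those of differently numbered arrays from -0.388 to 0.435. Of 12 arrays, 3 were closest to an array of their own number. With only 3 arrays in each group, this check cannot exclude pairing. With the replicate number as a block the count in ABC against FO was 7 (1 higher, 6 lower, beside 8.48% of all genes), and it was 11, 10 and 0 in the other comparisons.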

Other observations

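The set itself holds sensors such as Ifih1, Dhx58 and Zbp1. A separate list covered other sensors and adaptors of nucleic acid, which act before interferon is made. Of 14 measured, 3 were higher and 2 lower in ABC against FO, 4 higher and 1 lower in ABC against old B1, and 2 higher and 2 lower in old B1 against FO, where 9.96%, 12.8% and 16.4% of all genes were called. The adaptor gene Ticam1 (TRIF) was higher in ABC than FO by 0.59 ± 0.10 (limma adjusted p = 0.00277), and its endosomal receptor partner Tlr3 by 0.80 ± 0.16 (adjusted p = 0.00874). Cgas, the cytosolic DNA sensor, exceeded old B1 in ABC by 1.59 ± 0.30 (adjusted p = 0.00608), and Sting1, which relays its signal, was lower in old B1 than FO at -1.11 ± 0.19 (adjusted p = 0.00233). Ddx58 (RIG-I) was lower in ABC than in old B1 at -0.86 ± 0.16 (adjusted p = 0.00586).

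Among 9 measured negative regulators of cytokine signalling, 2 were higher in ABC than FO and none lower, beside 9.96% of all genes called. The phosphatase gene Ptpn1 was higher by 1.07 ± 0.14 (adjusted p = 5.7e-04). Cish, a SOCS-family gene, averaged 8.18 in old B1, 6.04 in ABC and 5.14 in FO, and old B1 exceeded FO, where all 3 arrays lay below their median, by 3.03 ± 0.32 (adjusted p = 9.6e-05). Socs1, below the array median on all 12 arrays, passed no test, with 0.26 ± 0.31 in ABC against FO (adjusted p = 0.754).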
